A study of Mus musculus with 72 samples.

Results

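The genes described here are 35 mouse genes of the endoplasmic reticulum (ER) that fold secreted proteins, sense misfolded ones, remove them or bring new chains into the organelle. They were chosen by name and function: 11 chaperones and their helpers, 6 disulfide isomerases and lectin chaperones, 4 stress sensors and transcription factors, 7 genes of ER-associated degradation and 7 genes of the translocon and signal peptidase. A gene was measured through a probe set annotated with its symbol alone, and through the brightest such probe set where there were several. By this rule 34 of the 35 genes had a value, out of 22180 genes on the array. All 34 were among the 13308 genes left after the dimmest 40% of genes were set aside, and Pdia4 was listed on a shared probe set with other genes and was not analysed here.

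The liver secretes most plasma proteins, and its hepatocytes are rich in rough ER. The membrane proteins made from Ern1, Eif2ak3 and Atf6 are held inactive by the chaperone BiP, the product of Hspa5, and are released when unfolded chains accumulate. Their signals, through the transcription factors XBP1 and cleaved ATF6, raise the genes for chaperones, isomerases and degradation. In the liver this unfolded protein response also follows feeding and the day-night cycle.

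Livers were taken every 4 h over a day in 12 h light and 12 h dark, at zeitgeber time (ZT, hours after lights on) 0, 4, 8, 12, 16 and 20, and RNA was measured on 72 Affymetrix gene arrays. The SIRT6 cohort held WT mice and mice with a liver-specific knockout (KO) of SIRT6 on a background labelled 129 mixed. The SIRT1 cohort held WT mice and mice with a liver-specific knockout of SIRT1 on C57BL/6. Each of the 24 groups of genotype and time had 3 arrays, so each cohort gave 18 WT and 18 KO arrays. The labels give neither the age or sex of the mice nor the Cre driver, and do not say that replicates are separate animals, so a p-value here speaks of these samples' own spread, which may be technical. In what follows a liver means the sample of a single array, which may not be a separate animal. Cohort and strain cannot be told apart. Values are log2(intensity + 16), called the log2 level below, and a level cannot be ranked between genes because each probe set has its own brightness.

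The probe set of the deleted gene did not follow the labels. The log2 level of Sirt6 was 7.32 ± 0.18 in SIRT6 WT livers and 7.89 ± 0.10 in the KO-labelled ones (mean ± SD, n = 18 each), a difference of +0.57 ± 0.05 (SE; limma, adjusted p = 8.9e-09). Sirt1 stood at 8.74 in both genotypes of its cohort. Where these probes lie against the deleted exons was not analysed here, so the groups are called KO-labelled. Whether labels were exchanged was not tested, and every KO-labelled minus WT direction given for the SIRT6 cohort would turn if they were. All 9 measured hepatocyte markers were well expressed, while 13 of the 16 measured pancreatic acinar markers fell under the filter. The summed intensity of 12 Kupffer cell markers ranged from 2496 to 19596 over the SIRT6 cohort and from 1820 to 7442 over the SIRT1 cohort. In whole liver, fewer cells of a type and less RNA per cell cannot be told apart.

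ATF6 and XBP1 are known to act through short promoter elements, and the matches are shown because they tell which members have the letters of such an element near the start. RefSeq (GRCm38.p6) gave a promoter for 26 of the 35 genes, and the 250 bases upstream of each start were searched on both strands. The ER stress response element, CCAAT and CCACG with 9 bases of any kind between them, was present in 9 of the 26 (34.6%), against 35 of all 27025 genes (0.13%). The matches, written on the strand of the element with its conserved ends in capitals, were:
Hspa5: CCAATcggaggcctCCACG
Hsp90b1, nearer the start: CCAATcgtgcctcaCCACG
Hsp90b1, farther from the start: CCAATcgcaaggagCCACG
Dnajc3: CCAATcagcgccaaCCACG
Creld2: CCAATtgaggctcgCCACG
Pdia6: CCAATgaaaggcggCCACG
Calr: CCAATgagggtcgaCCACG
Canx: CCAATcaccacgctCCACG
Syvn1: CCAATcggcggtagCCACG
Derl3: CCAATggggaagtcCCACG

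The 4 genes below return among the results as examples, and 150 bases of each promoter, from the strand of the gene and with the element in capitals, are printed here. The second form of the element, ATTGG and CCACG with 1 base between them, was found among the members only in Herpud1 (10 of all genes, 0.037%). Sdf2l1 had no match to either form in its window.
Hspa5, chr2:34771940-34772089, + strand: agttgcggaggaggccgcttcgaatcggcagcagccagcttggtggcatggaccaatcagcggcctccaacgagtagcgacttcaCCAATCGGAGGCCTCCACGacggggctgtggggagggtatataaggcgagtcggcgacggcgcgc
Creld2, chr15:88819496-88819645, + strand: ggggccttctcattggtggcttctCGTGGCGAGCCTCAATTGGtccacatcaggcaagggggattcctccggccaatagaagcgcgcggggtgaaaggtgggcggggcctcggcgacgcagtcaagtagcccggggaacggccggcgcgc
Sdf2l1, chr16:17132384-17132533, - strand: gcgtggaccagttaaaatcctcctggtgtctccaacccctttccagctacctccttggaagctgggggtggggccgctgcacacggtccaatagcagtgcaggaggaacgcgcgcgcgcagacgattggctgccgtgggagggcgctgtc
Herpud1, chr8:94386279-94386428, + strand: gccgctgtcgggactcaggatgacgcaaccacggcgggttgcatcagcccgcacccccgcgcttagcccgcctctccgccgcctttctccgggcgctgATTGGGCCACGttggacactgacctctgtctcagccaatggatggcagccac
The element of Hspa5 lay 65 to 47 bases upstream of the start and that of Herpud1 52 to 42 bases upstream. The element TGACGTGG was in 0 of the 26 members (0.603% of all genes). The E-box CACGTG, to which the clock proteins CLOCK and BMAL1 bind, was in 4 members (15.4%, against 6.86% of all genes), which were Calr, Derl3, Dnajb9 and Ssr1. These matches describe letters in a window and were not tested for binding.

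Levels over the day came first. In each cohort and genotype a 24 h cosine was fitted to the 18 arrays, its moderated F test in limma was adjusted over all 13308 genes, and the trough-to-peak difference of the fitted curve is given in log2 units. In SIRT6 WT livers 2 of 34 members passed (10.1% of all genes passed), in SIRT6 KO-labelled livers 10 (10.6%), in SIRT1 WT livers 16 (18.3%) and in SIRT1 KO-labelled livers 18 (23.2%). So the members' share lay above that of all genes in 3 of the sets and below it in SIRT6 WT livers. The count in SIRT6 KO-labelled livers was 3 without ZT4 replicate 2, 3 without ZT4 replicate 3, 6 without ZT8 replicate 2, 5 without ZT8 replicate 3 and 5 without ZT16 replicate 1. With an F test over the 6 times in place of the cosine it was 1, and the count in SIRT1 WT livers was 9.

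Chaperones, the largest group of members, held the most calls in each set but SIRT6 WT. Of the 11, none passed in SIRT6 WT livers (10.1% of all genes) and 7 in SIRT6 KO-labelled livers (10.6%). In SIRT1 WT livers 9 passed (18.3%) and in SIRT1 KO-labelled livers 8 (23.2%). For single genes below, the times set against each other were picked after their means were seen. A lack of overlap between such times describes these livers and is not a test. Hspa5 showed the pattern. In SIRT1 KO-labelled livers its log2 level was 10.90, 10.80 and 10.73 at ZT8 and 11.40, 11.42 and 11.32 at ZT0. In SIRT1 WT livers the values were 11.11, 11.04 and 10.81 at ZT8 and 11.67, 11.38 and 11.46 at ZT0. Every ZT0 liver of that cohort lay above every ZT8 liver. The fitted difference was 0.60 ± 0.07 (SE) with a peak at ZT20.2 in KO-labelled livers (adjusted p = 3.32e-05) and 0.44 ± 0.10 with a peak at ZT22.0 in WT livers (adjusted p = 0.0135).

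Hspa5 in the SIRT6 cohort was highest at ZT16. The WT values there were 11.69, 11.80 and 11.36, against 10.97, 10.86 and 11.11 at ZT8, and the KO-labelled values were 11.68, 11.13 and 11.34 against 10.82, 10.92 and 10.71. The ZT16 livers lay above the ZT8 livers of the same genotype without overlap. The cosine passed in KO-labelled livers (0.66 ± 0.15, peak ZT16.8, adjusted p = 0.0205) and missed in WT livers (0.35 ± 0.17, peak ZT17.1, adjusted p = 0.348).

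Among the chaperones of the SIRT1 cohort the widest swings belonged to 2 small ER proteins that are known targets of the response, Creld2 and Sdf2l1, the latter a partner of the co-chaperone made by Dnajb11. Creld2 rose in SIRT1 KO-labelled livers from 8.80, 8.29 and 8.50 at ZT8 to 9.82, 10.29 and 10.42 at ZT16. Those times did not overlap, and the fitted difference was 1.44 ± 0.20 (adjusted p = 0.000103). It was 1.10 ± 0.21 in SIRT1 WT livers (adjusted p = 0.00282), 1.32 ± 0.31 in SIRT6 KO-labelled livers (adjusted p = 0.0246) and 0.97 ± 0.38 in SIRT6 WT livers (adjusted p = 0.205).

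Sdf2l1 in SIRT1 WT livers stood at 9.37, 9.27 and 9.28 at ZT12 and at 10.85, 10.67 and 10.26 at ZT0. No liver at any other time was as low as those of ZT12 in that set. Its fitted difference was 1.31 ± 0.13 with a peak at ZT23.2 (adjusted p = 3.91e-06), and in KO-labelled livers of that cohort 1.14 ± 0.17 with a peak at ZT21.6 (adjusted p = 0.000233). In the SIRT6 cohort it missed the threshold in both genotypes (WT 0.79 ± 0.34, adjusted p = 0.262; KO-labelled 0.76 ± 0.29, adjusted p = 0.221).

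**Figure D1:**
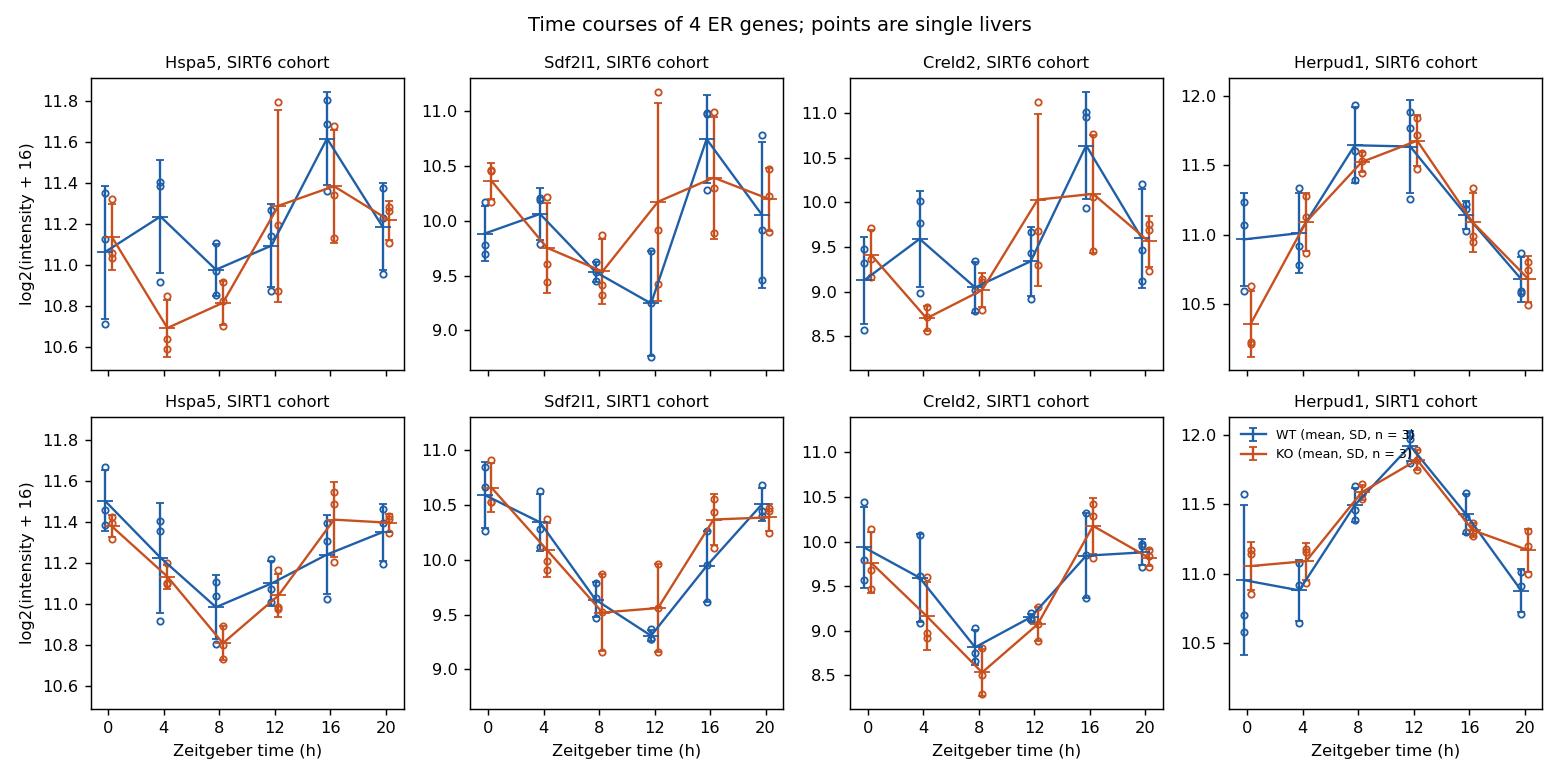
The log2 level, log2(intensity + 16), of Hspa5, Sdf2l1, Creld2 and Herpud1 against zeitgeber time in hours, for the SIRT6 and SIRT1 cohorts, with WT in blue and KO-labelled in orange. Points are single livers, lines join the group means and bars are the SD over 3 livers. Hspa5, Sdf2l1 and Creld2 are low at ZT8 or ZT12 in SIRT1 livers, while Herpud1 has its highest means at ZT8 and ZT12 in each set.

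Most of the other chaperones passed as well. Hyou1, a large nucleotide exchange factor for BiP, swung by 0.95 ± 0.20 in SIRT6 KO-labelled livers, 0.75 ± 0.15 in SIRT1 WT and 0.66 ± 0.11 in SIRT1 KO-labelled livers, and Manf, a small stress-induced ER protein, by 0.86 ± 0.21, 0.68 ± 0.14 and 0.78 ± 0.13. The J-domain co-chaperones Dnajb11 and Dnajc3 passed in the same 3 sets (adjusted p from 8.14e-06 to 0.0300). Hspa13, an Hsp70-like ER protein, passed in both genotypes of the SIRT1 cohort, and Hsp90b1, the ER member of the Hsp90 family, in SIRT1 WT livers. Dnajb9, a J-domain protein known as a target of XBP1, passed in SIRT6 KO-labelled livers, with a fitted difference of 0.92 ± 0.17 and an early peak at ZT14.1 (adjusted p = 0.00415). Sil1, another exchange factor for BiP, did not pass in any set, with fitted differences of 0.08 to 0.23.

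Of the 5 isomerases and lectin chaperones, 0 passed in SIRT6 WT livers (10.1% of all genes) and 1 in SIRT6 KO-labelled livers (10.6%). In SIRT1 WT livers 3 passed (18.3%) and in SIRT1 KO-labelled livers 2 (23.2%). Pdia6, an isomerase that also acts on Ern1, passed in SIRT1 WT livers (0.56 ± 0.09, adjusted p = 0.000555) and in SIRT1 KO-labelled livers (0.35 ± 0.07, adjusted p = 0.00287). Calr, the soluble lectin chaperone calreticulin, passed in those 2 sets and in SIRT6 KO-labelled livers (0.29 ± 0.08, adjusted p = 0.0462), where the call was lost without any of 13 single arrays of 18. Pdia3, the isomerase that works with the lectins, passed in SIRT1 WT livers with 0.33 ± 0.06 (adjusted p = 0.00257). P4hb, the classical disulfide isomerase, and Canx, the membrane-bound lectin calnexin, passed in no set and had fitted differences of 0.10 or less.

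Among the sensors and factors, Xbp1 in SIRT6 WT livers was the only call. Its log2 level there was 11.53, 11.58 and 11.50 at ZT12 and 11.16, 11.09 and 11.35 at ZT20, so the ZT12 livers lay above the ZT20 livers. The fitted difference was 0.32 ± 0.07 with a peak at ZT11.1 (adjusted p = 0.0184). The call was lost with array medians centred and with an F test over the 6 times (adjusted p up to 0.114). In the other sets Xbp1 differed by 0.07 to 0.28 and missed the threshold. Atf6, Ern1 and Eif2ak3 passed in no set, with adjusted p-values of 0.0541 or more. A gene-level array value does not separate the spliced, active form of Xbp1 mRNA from the unspliced one, and does not show cleavage of ATF6 or phosphorylation of the kinases.

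Herpud1, a membrane scaffold of the degradation complex, was the sole member that passed in all 4 sets, with fitted peaks before lights off. In SIRT6 WT livers its log2 level was 11.60, 11.94 and 11.39 at ZT8 and 10.58, 10.86 and 10.60 at ZT20. SIRT6 KO-labelled livers gave 11.48, 11.84 and 11.72 at ZT12 and 10.21, 10.63 and 10.23 at ZT0. These times, picked as those of the highest and lowest mean, did not overlap in either genotype. The fitted difference was 0.94 ± 0.17 with a peak at ZT10.0 in SIRT6 WT livers (adjusted p = 0.0050) and 1.26 ± 0.12 with a peak at ZT10.5 in SIRT6 KO-labelled livers (adjusted p = 2.89e-05). In the SIRT1 cohort it was 1.03 ± 0.16 at ZT11.9 in WT (adjusted p = 0.000461) and 0.73 ± 0.09 at ZT11.4 in KO-labelled livers (adjusted p = 3.99e-05). No array, when left out, removed any of these 4 calls.

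Of the other degradation genes, Edem1, which helps extract misfolded glycoproteins, passed in both genotypes of the SIRT1 cohort with 0.23 ± 0.05 in WT and 0.21 ± 0.05 in KO-labelled livers, and missed on its second, dimmer probe set. Sel1l and Syvn1, the adaptor and the ubiquitin ligase of the main degradation complex, passed in SIRT1 KO-labelled livers (0.30 ± 0.07 and 0.61 ± 0.12, adjusted p = 0.00715 and 0.00225). Derl1, Derl2 and Derl3, channel-like proteins of the same complex, passed in no set.

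In the translocon group Ssr1, a subunit of the translocon-associated complex, and Spcs2, a subunit of signal peptidase, passed in both genotypes of the SIRT1 cohort with fitted differences of 0.32 to 0.37. Ssr1 missed in both on its second probe set, and Spcs2 missed on its own in KO-labelled livers. Ssr2, of the same complex as Ssr1, passed in both KO-labelled sets (SIRT6 0.39 ± 0.10, adjusted p = 0.032; SIRT1 0.17 ± 0.05, adjusted p = 0.0348). Leaving out single arrays removed its SIRT6 call in 7 of 18 cases and its SIRT1 call in 9 of 18. Sec61a1, the pore of the translocon, passed in SIRT1 KO-labelled livers with 0.16 ± 0.05 (adjusted p = 0.0352), a call lost in 7 of 18 such cases. The small subunit Sec61b, and Ssr3 and Spcs3, passed in no set.

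The fitted peaks of the members lay mostly in the dark phase and its end. Taking all 34 whatever their p, a peak between ZT14 and ZT2 was found for 29 in SIRT6 WT livers (40.3% of all genes), 30 in SIRT6 KO-labelled (46.5%), 30 in SIRT1 WT (48.9%) and 28 in SIRT1 KO-labelled livers (42.7%). That window was chosen after the peaks were seen, and the members share the same arrays, so the counts describe these livers and are not independent. The peak of Hspa5 was at ZT17.1 and ZT16.8 in the SIRT6 cohort and at ZT22.0 and ZT20.2 in the SIRT1 cohort, and that of Creld2 at ZT16.8 and ZT15.9 against ZT21.1 and ZT19.5. Herpud1 peaked between ZT10.0 and ZT11.9 in all 4 sets. The difference in peak time between cohorts was not tested.

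The time of the highest mean gave a like picture. In SIRT6 WT livers 26 of 34 members had their highest mean at ZT16, against 17.7% of all genes, and in SIRT6 KO-labelled livers 16 did, against 13.2%. In SIRT1 WT livers 21 were highest at ZT0, against 14.5% of all genes. In SIRT1 KO-labelled livers 11 were highest at ZT20 and 10 at ZT0, against 11.5% and 12.8% of genes. The lowest mean fell at ZT8 for 16 and at ZT12 for 12 members in SIRT6 WT livers (14.2% and 11.7% of genes), and at ZT8 for 21 in SIRT1 KO-labelled livers (19.9% of genes).

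**Figure D2:**
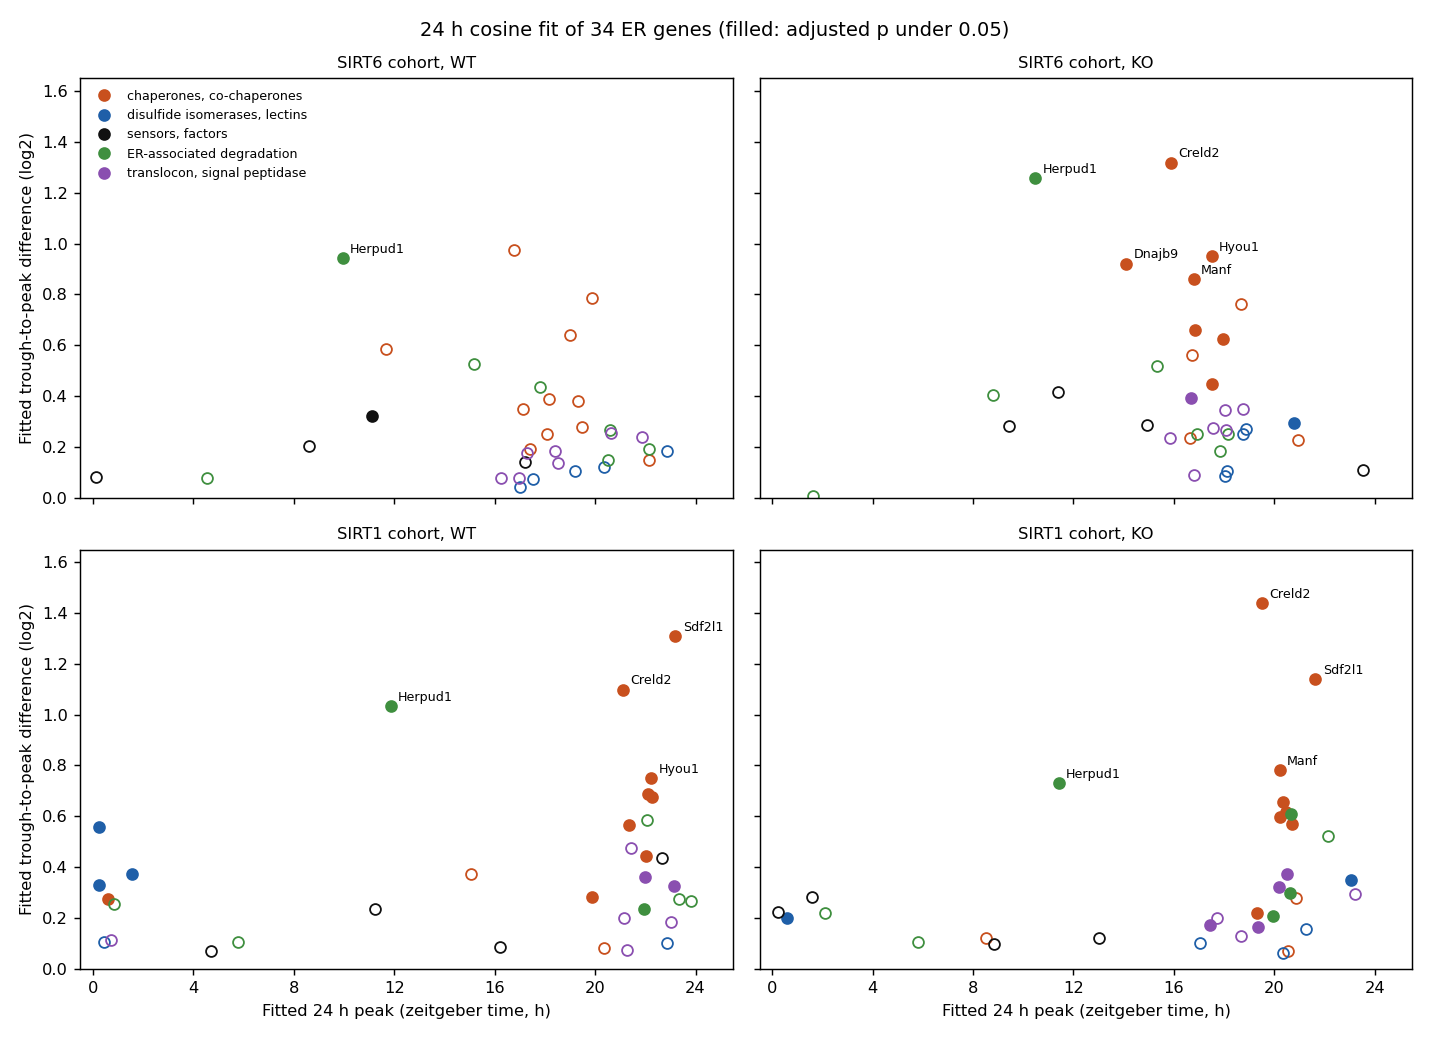
Fitted trough-to-peak difference (log2) against fitted 24 h peak (zeitgeber time, h) for 34 members in the 4 sets of 18 arrays, coloured by role, filled where the adjusted p was under 0.05. Filled points number 2, 10, 16 and 18 in SIRT6 WT, SIRT6 KO-labelled, SIRT1 WT and SIRT1 KO-labelled livers, and Herpud1 is filled in each, with peaks from ZT10.0 to ZT11.9.

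A 12 h component beside the 24 h one was also tested, since ER genes in liver are known for such rhythms. In limma 0 members passed after adjustment in any of the 4 sets, where 0, 0, 0.0601% and 0.316% of all genes did. At an unadjusted p under 0.05 there were 14 members in SIRT6 WT livers (6.53% of all genes), 1 in SIRT6 KO-labelled (1.97%), 1 in SIRT1 WT (8.74%) and 8 in SIRT1 KO-labelled livers (10.1%). Without SIRT1 KO-labelled ZT12 replicate 1, 1 member passed the adjusted threshold in that set.

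The 14 members of SIRT6 WT livers included 8 of the 11 chaperones. Creld2 there read 9.77, 8.99 and 10.02 at ZT4, 8.78, 9.02 and 9.34 at ZT8, 9.67, 9.44 and 8.91 at ZT12 and 11.02, 10.96 and 9.94 at ZT16. The ZT16 values were high and the ZT4 values overlapped those of ZT8 and ZT12. The fitted 12 h difference was 1.12 ± 0.29 for Creld2, 0.46 ± 0.14 for Hspa5 and 0.64 ± 0.13 for Syvn1, each with a first fitted peak near ZT4. None of these passed in limma after adjustment over all genes. A 12 h curve repeats by its form, so the fit sets a further peak near ZT16 whether or not both are present. The 6 times of a single day cannot show a repeat. In that set 26 of 34 members had their highest mean at ZT16 and 2 at ZT4 (17.7% and 14.2% of all genes).

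KO-labelled and WT livers were then compared over the whole day, as the mean of the 6 time-matched differences. In the SIRT6 cohort 1 of 34 members passed, against 6.61% of all genes. It was Sel1l, the adaptor that holds the degradation complex together. Its log2 level ran in WT livers from 10.18 to 10.73 with a median of 10.52, and in KO-labelled livers from 9.99 to 10.61 with a median of 10.35. The ranges overlapped, but 14 of 18 KO-labelled livers lay below the WT mean of their time, and ZT12 was the one time with a higher KO-labelled mean. The difference was -0.16 ± 0.04 (SE; WT 10.50 ± 0.16, KO-labelled 10.34 ± 0.16, SD, n = 18 each; limma, adjusted p = 0.0105). It kept its call without each single array and missed when array medians were centred (adjusted p = 0.0574).

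The count of called members in that cohort was 4 without SIRT6 KO-labelled ZT12 replicate 1, and 2 without WT ZT0 replicate 3, WT ZT4 replicate 2 or KO-labelled ZT20 replicate 1. Another 4 members had an unadjusted p under 0.05, making 5 in all (19.3% of all genes). Atf6 differed by -0.11 (adjusted p = 0.062), Syvn1 by -0.18 (0.204), Ssr2 by -0.10 (0.212) and Spcs3, of signal peptidase, by +0.11 (0.219). The KO-labelled mean was the lower for 24 of 34 members, with a median difference of -0.04 against 0.00 over all genes, and 51.7% of all genes had a higher mean. By role the lower means numbered 7 of 11 chaperones, 5 of 5 isomerases and lectins, 2 of 4 sensors and factors, 6 of 7 degradation genes and 4 of 7 translocon genes. Hspa5 differed by -0.11, with a 95% interval from -0.26 to 0.05.

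In the SIRT1 cohort 0 of 34 members passed in limma, against 2.27% of all genes, and 3 had an unadjusted p under 0.05 (18% of all genes). These were Eif2ak3, the PERK kinase, at +0.12 ± 0.05 (adjusted p = 0.227), Ssr3 at -0.10 ± 0.05 (0.266) and Edem1 at -0.05 ± 0.03 (0.276). The second probe set of Edem1 gave the opposite sign, +0.16. The median difference was -0.02 and 21 of 34 means were lower. For Hspa5 the difference was -0.04, with a 95% interval from -0.13 to 0.05, and for Sdf2l1 +0.04, with an interval from -0.12 to 0.20.

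**Figure D3:**
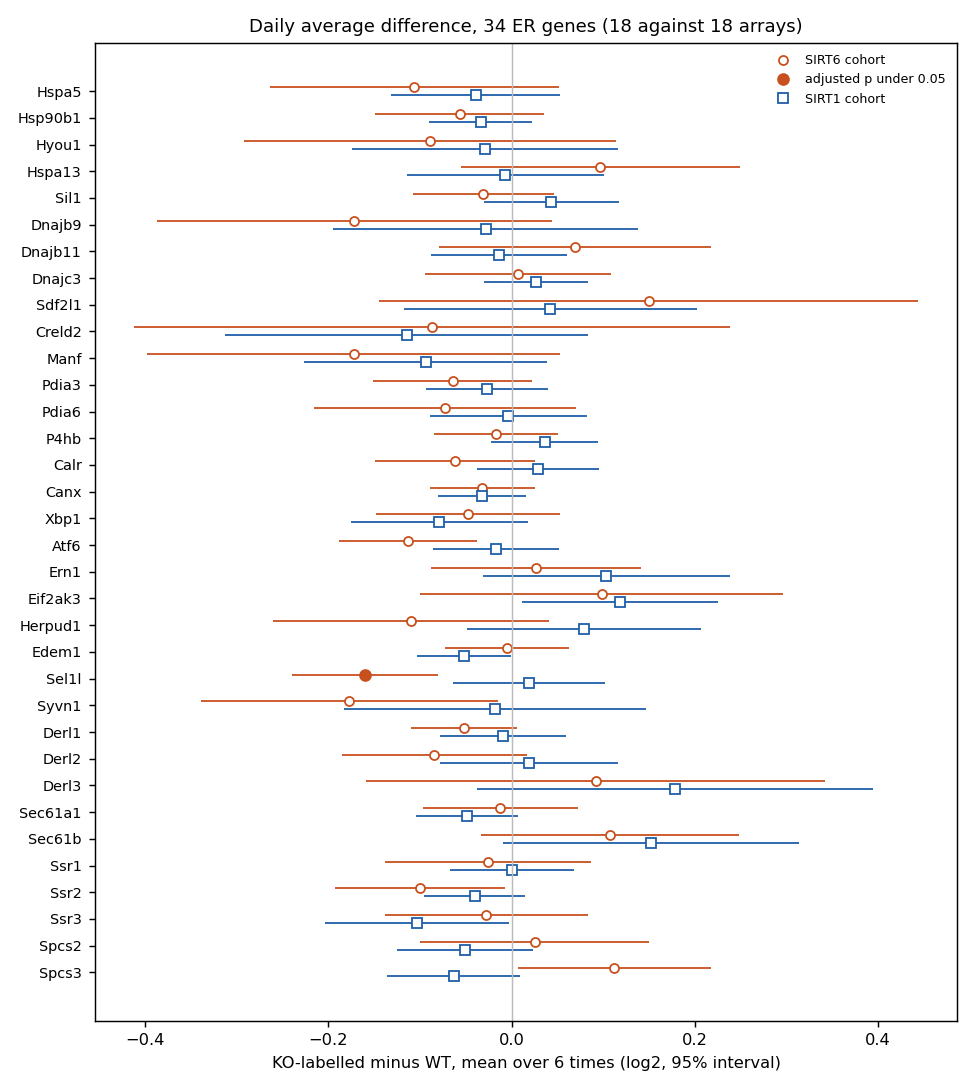
KO-labelled minus WT, averaged over 6 times (log2), with its 95% interval, for 34 members in the SIRT6 and SIRT1 cohorts, each from 18 against 18 arrays. Sel1l at -0.16 in the SIRT6 cohort is the member that passed; most other intervals include 0 in both cohorts.

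At single times the comparison was 3 livers against 3. With limma and 1 adjustment over all genes and times, 0 members passed in the SIRT6 cohort (0.473% of all genes passed at some time) and 0 in the SIRT1 cohort (0%). The lowest adjusted p was 0.102. The SIRT6 cohort at ZT4 nevertheless held the widest differences. The KO-labelled mean was the lower for 29 of 34 members (56.2% of all genes), and for 19 of them every KO-labelled liver lay below every WT liver (11.1% of all genes). At an unadjusted p under 0.05 there were 11 (12.3%), and the median difference was -0.23 against -0.03 over all genes. None of the 34 was higher without overlap (7% of all genes). The members were read from the same livers and varied together within groups in this cohort (below), so these counts are not independent.

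Chaperones made up much of this count, with 10 of 11 lower and 9 without overlap. Hspa5 was 11.41, 10.92 and 11.38 in WT and 10.85, 10.59 and 10.64 in KO-labelled livers at ZT4. Manf was 9.48, 9.02 and 9.50 in WT and 8.76, 8.38 and 8.37 in KO-labelled livers, and Creld2 was 9.77, 8.99 and 10.02 against 8.83, 8.55 and 8.72. In all 3 genes the WT replicate 2 was the lowest WT liver and still lay above the highest KO-labelled one. The differences were -0.54 ± 0.19 for Hspa5 (adjusted p = 0.383), -0.83 ± 0.27 for Manf (0.327) and -0.89 ± 0.39 for Creld2 (0.562).

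Hyou1 at -0.62, Dnajb9 at -0.60 and Syvn1 at -0.59 followed, with 3 livers below 3 in each. The lowest p belonged to Atf6, the membrane-bound transcription factor, at 9.87, 9.59 and 9.72 in WT and 9.39, 9.32 and 9.33 in KO-labelled livers, a difference of -0.38 ± 0.09 (adjusted p = 0.102). Among the isomerases and lectins 5 of 5 were lower, 3 without overlap, and in the translocon group 6 of 7, 4 without overlap. Degradation genes were lower in 5 of 7 and without overlap in 2, which were Sel1l and Syvn1. The 5 members that did not have a lower mean at ZT4 were Sil1, Ern1, Herpud1, Sec61b and Derl3, at +0.00 to +0.10.

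Leaving out each of the 6 livers of ZT4 in turn gave 29 to 32 lower means and medians from -0.27 to -0.17. With quantile normalization 29 were lower and 14 did not overlap, and with array medians centred 29 and 19. These checks were chosen after the pattern was seen. The summed Kupffer cell markers at ZT4 were 10017, 5143 and 11806 in WT and 11093, 7244 and 7749 in KO-labelled livers, which overlap, and the hepatocyte markers summed to between 52768 and 55304 in all 6. Their part in the result was not tested.

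The direction was the opposite at ZT12 in the SIRT6 cohort, where 31 of 34 members had a higher KO-labelled mean (48.1% of all genes had a lower one). Of these, 4 did not overlap (4.98% of all genes) and 5 had an unadjusted p under 0.05 (4.51%), and the median was +0.11. The count of higher means and the median rested on a single liver, KO-labelled replicate 1. Its log2 levels were 11.80 for Hspa5, 11.18 for Sdf2l1 and 11.12 for Creld2. The other KO-labelled livers of that time had 10.87 and 11.20, 9.43 and 9.92, and 9.29 and 9.68. Without replicate 1, 16 members were higher and the median was -0.01, while 4 were still higher without overlap (9.1% of all genes). The summed Kupffer cell markers of replicate 1 were 12507, against 3219 and 10902 in the other 2, a difference whose part was not tested.

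At ZT16 the KO-labelled mean was lower for 30 of 34 (52.3% of all genes), with 3 not overlapping (2.96%) and a median of -0.08. Leaving out 1 liver at a time gave 21 to 33. At ZT8 it was lower for 25 (53.1% of all genes) with 7 not overlapping (5.24%), at ZT0 lower for 10 (53.8%), and at ZT20 lower for 15 (35.3%). At ZT0 it was lower for 18 without WT replicate 3, where the median went from +0.06 to -0.03, and for 17 without KO-labelled replicate 1. The count at ZT20 moved to 28 when array medians were centred, to 25 without WT replicate 1, to 7 without WT replicate 3 and to 9 without KO-labelled replicate 2.

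In the SIRT1 cohort the means ran in different directions over the day. The KO-labelled mean was the lower for 25 members at ZT0 (46% of all genes), 5 of them without overlap (8.46%), for 22 at ZT4 (44.7%) and for 23 at ZT8 (49.3%). It was the lower for 12 at ZT12 (43.2%), where 6 were higher without overlap (9.24%), and for 10 at ZT16 (59.5%). With array medians centred, 18 were lower at ZT12, 0 were higher without overlap and the median was -0.00, and without WT replicate 2 there were 7 lower. The other 24 at ZT16 were higher, 13 without WT replicate 1 and 16 without KO-labelled replicate 2. At ZT20, 18 were lower (58.3%), and 6 when array medians were centred. The medians at the 6 times lay between -0.08 and +0.04.

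**Figure D4:**
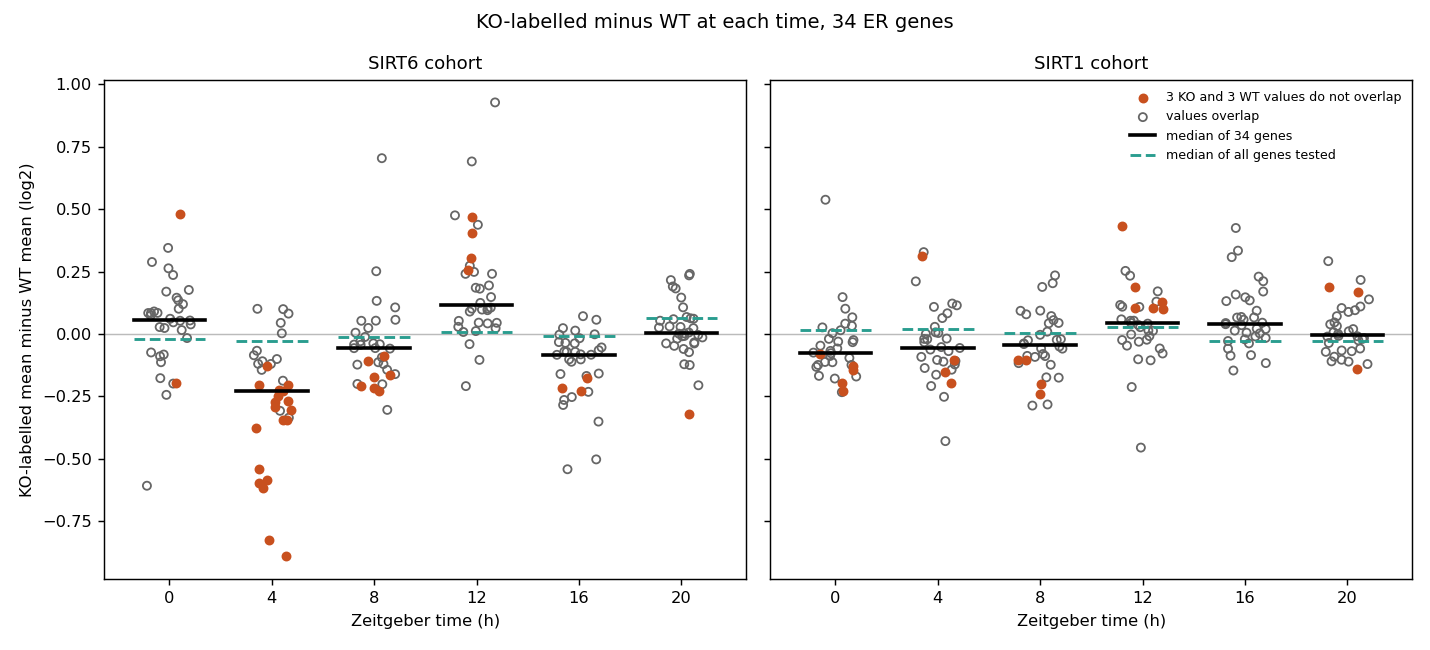
KO-labelled mean minus WT mean (log2) at each zeitgeber time for 34 members in the 2 cohorts. Points are members, filled where the 3 KO-labelled and 3 WT livers do not overlap, the black line is the members' median and the dashed line the median of all genes. In the SIRT6 cohort the members' median is -0.23 at ZT4, with 19 filled points, and +0.11 at ZT12.

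Whether the rhythm itself differed between genotypes was tested with the genotype by cosine terms over the 36 arrays of a cohort. In limma 0 members passed in either cohort (0.00751% and 0% of all genes), and 1 in the SIRT6 and 3 in the SIRT1 cohort had an unadjusted p under 0.05 (8.25% and 7.26% of all genes). The lowest were Atf6 in the SIRT6 cohort, from 0.08 in WT to 0.28 in KO-labelled livers (adjusted p = 0.496), and Hsp90b1 in the SIRT1 cohort, from 0.27 to 0.07 (adjusted p = 0.656). So a call in 1 genotype and a miss in the other, as for Hspa5 and Creld2 in the SIRT6 cohort, does not show a difference. The fitted swing of Manf went from 0.39 to 0.86 there, and that of Hspa5 from 0.35 to 0.66.

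The effects of the 2 knockout labels were compared in 1 fit of all 72 arrays. Sel1l was the member called, with an effect in the SIRT6 cohort lower than that in the SIRT1 cohort by -0.18 ± 0.06 (SIRT6 -0.16, SIRT1 +0.02; adjusted p = 0.0469; 5.76% of all genes were called). The call was lost with a replicate block, with quantile normalization, with array medians centred, with no filter, with no trend, and without any of 43 of the 72 single arrays (adjusted p up to 0.123). Spcs3 came next, at +0.18 ± 0.06 (SIRT6 +0.11, SIRT1 -0.06; adjusted p = 0.082).

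Within a group of 3 livers the members still varied, and in the SIRT6 cohort most of them varied together. Group means were subtracted and each of the other 33 members was correlated with Hspa5 over the 36 arrays of a cohort. The p-values, two-sided, came from 100000 permutations of livers within groups and were adjusted over the 13307 other genes. The shuffling treats WT and KO-labelled livers as unrelated. Same-numbered pairs of them in the SIRT6 cohort had a median correlation of 0.25, against -0.09 for other pairs, so these p-values may be too small. In the SIRT6 cohort 23 of 33 passed, all positive, against 8.03% of all genes, and the median r was 0.77 against 0.06. Of all genes 1908 passed in either direction, 1068 of them with a positive r. Manf had r = 0.97 and rho = 0.96, Creld2 r = 0.93 and rho = 0.91, and Hyou1 r = 0.93 and rho = 0.93, each with adjusted p = 0.00251, at the smallest raw p that the permutations can give (1e-05). Without the 2 arrays farthest from the median, both at ZT12 in KO-labelled livers, r was 0.95 for Manf, 0.91 for Creld2 and 0.90 for Hyou1, 18 members passed and the median r was 0.70.

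Most of the calls came from chaperones, isomerases and the translocon. Sec61a1 had r = 0.90, Hsp90b1 0.90, Ssr2 0.88, Calr 0.86, Canx 0.86, Edem1 0.85 and Pdia3 0.85. These 7 passed, and their r without the 2 arrays was 0.81 to 0.87. Of the sensors Eif2ak3 passed, with r = 0.65 and rho = 0.58 (adjusted p = 0.023), and missed without the 2 arrays (r = 0.54, adjusted p = 0.079). The members below the threshold were the sensors and factors Xbp1, Atf6 and Ern1, the degradation genes Sel1l, Derl1, Derl2, Derl3 and Herpud1, and Sil1 and Sec61b. Herpud1 ran the other way, with r = -0.45 and rho = -0.46 (p = 0.0295, adjusted p = 0.103), and -0.40 without the 2 arrays.

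In the SIRT1 cohort 1 of 33 passed (0.0601% of all genes), which was Hspa13 with r = 0.79 and rho = 0.80 (adjusted p = 0.038). The median r was 0.55 against 0.02, and of all genes 9 passed in either direction. Sel1l at r = 0.82 and Hyou1 at 0.81 missed (adjusted p = 0.086 and 0.063), and Herpud1 had r = 0.51 (adjusted p = 0.292). Without WT ZT4 replicate 3 and WT ZT16 replicate 1, the 2 farthest arrays, 0 members passed under the same permutation test, r for Hspa13 was 0.64 and the median r was 0.44. The difference between the cohorts was not tested.

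Summed cell type markers and the array medians were set against Hspa5 in the same way, and none of the 18 relations passed after adjustment. Over the same arrays the summed Kupffer cell markers had r = 0.50 with Hspa5 in the SIRT6 cohort (permutation p = 0.0253, adjusted over 18 relations p = 0.176; 0.41 without the 2 arrays) and r = -0.26 in the SIRT1 cohort. T and NK cell markers had r = 0.44 and -0.22 in the 2 cohorts, B and plasma cell markers 0.40 and 0.04, and hepatocyte markers -0.32 and 0.36. All 12 Kupffer cell markers had a higher mean in SIRT6 KO-labelled livers (median +0.17) and all 12 a lower one in SIRT1 KO-labelled livers (median -0.12), and none of them passed the test in limma, with 0 and 2 at an unadjusted p under 0.05. Their part in the members' values was not tested.

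**Figure D5:**
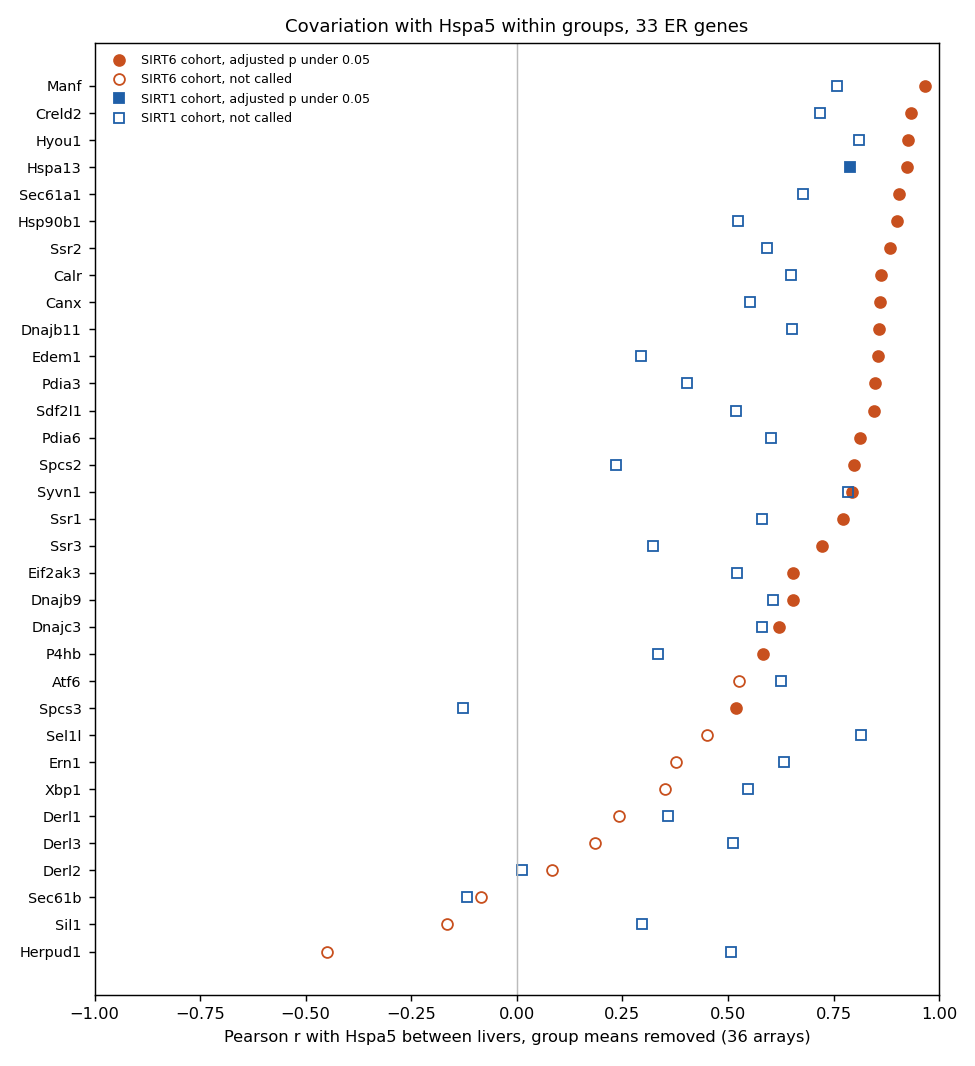
Pearson r of each of 33 members with Hspa5 between livers, after subtraction of the group means, over 36 arrays of the SIRT6 and of the SIRT1 cohort. In the SIRT6 cohort Manf stands at 0.97 and Herpud1 at -0.45, and in the SIRT1 cohort the median is 0.55.

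The rest of the pathway was read from 4 lists of other genes. Over the day in the SIRT6 cohort, 2 of 29 other folding genes were higher and 3 lower, 2 of 23 other degradation genes were higher and 0 lower, 0 of 31 translocon and glycosylation genes passed (7 at an unadjusted p under 0.05, limma), and of 30 other signalling genes 1 was higher and 1 lower. Over all genes 6.61% passed and 19.3% had an unadjusted p under 0.05. The smallest p-values belonged to Prkcsh, the beta subunit of glucosidase II, at +0.23 ± 0.03 (adjusted p = 4.57e-05, higher in 18 of 18 livers), and to Ganab, its catalytic subunit, at -0.12 ± 0.03 (adjusted p = 0.006). Bloc1s1, an mRNA known to be cut by the Ern1 nuclease, rose by 0.19 ± 0.04, and Asns, asparagine synthetase and a target of ATF4, fell by 1.27 ± 0.33, from 8.06 to 6.79.

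In the SIRT1 cohort Asns also fell, by 1.96 ± 0.34, from 8.25 to 6.29 (adjusted p = 0.004). Fkbp2, an ER prolyl isomerase, rose by 0.12 ± 0.03, Ddit4, a stress-induced inhibitor of mTORC1 signalling, by 0.47 ± 0.12, and Dad1, a subunit of oligosaccharyltransferase, by 0.15 ± 0.04. These were the calls among the 113 other genes of that cohort, where 2.27% of all genes passed. At ZT4 in the SIRT6 cohort, 22 of 29 other folding genes, 16 of 23 degradation genes, 28 of 31 translocon and glycosylation genes and 22 of 30 signalling genes had a lower KO-labelled mean, with 10, 6, 10 and 2 of them without overlap (11.1% of all genes). Members and these lists share the arrays.

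For 24 h rhythms the other genes gave 7 calls of 113 in SIRT6 WT, 19 in SIRT6 KO-labelled and 25 in each genotype of the SIRT1 cohort. In these 4 sets 10.1%, 10.6%, 18.3% and 23.2% of all genes passed. Atf5, a transcription factor of the integrated stress response, led in 3 of the sets and passed in all 4, with fitted differences of 1.61, 1.21, 1.24 and 1.09 and peaks from ZT23.6 to ZT0.4. Its peaks thus lay near lights on, and those of Herpud1 before lights off. Cebpb, a partner of ATF4, peaked at ZT11.3 in SIRT6 WT and ZT12.2 in SIRT1 KO-labelled livers, and P4ha1, a collagen prolyl hydroxylase, at ZT17.7 and ZT18.6 in the WT and KO-labelled SIRT1 sets. Txndc5, a disulfide isomerase, had the smallest p in SIRT6 KO-labelled livers (0.38 ± 0.07, peak ZT14.8, adjusted p = 0.004).

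The promoter element was last set against the rhythm. Of the 25 members with both a promoter and a value, the 9 with the ER stress response element gave 0, 4, 6 and 6 calls for 24 h in SIRT6 WT, SIRT6 KO-labelled, SIRT1 WT and SIRT1 KO-labelled livers, and the 16 without gave 2, 3, 7 and 7. Over all genes 10.1%, 10.6%, 18.3% and 23.2% passed in these sets. The second form of the element was not counted, so the 16 include Herpud1, which has that form and was called in each set. The median swing was 0.28, 0.41, 0.37 and 0.35 with the element and 0.20, 0.28, 0.33 and 0.28 without. The ranges overlapped in each set, for Canx with the element swung by 0.10 or less and Sdf2l1 without it by up to 1.31. The difference between these 2 groups of members was not tested.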

How the data were processed

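The values are probe-set intensities on a linear scale, deposited by the authors and made with Affymetrix Expression Console 1.1.1 and PLIER 2.0, per the submitters' processing notes; the scaling between arrays and the build are not stated in the sources used here. Of 41345 probe sets, 23521 named 1 gene and were used, the brightest per gene. Intensities plus 16 were taken to log2, the lowest 40% of genes by mean were left out, and group means were fitted per cohort with limma 3.58.1 in R 4.3.3 (eBayes with a trend). P-values were adjusted by Benjamini-Hochberg over all 13308 genes, with a threshold of 0.05; single times shared 1 adjustment. No pair of arrays held identical values, array medians lay between 43.9 and 53.8, and precision is set by how many arrays a group has. Correlations with Hspa5 were adjusted over all genes, where the written design had the members alone. The fits were tested on simulated data with independent noise for each gene and array, which lacks the variation shared between genes in these arrays. Changes of 0.5 at ZT4 alone were called for 21.5% of changed genes in the SIRT6 and 35% in the SIRT1 setting. Differences in 24 h rhythm with a swing of 0.5 were called for 22% and 28.5%. A count of 0 in those tests can thus miss changes of that size.

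The members and lists were chosen with earlier results of these data known. All members were named whatever their values, and of the other pathway genes up to 4 per test with the smallest p. Alternatives were other scalings, pseudocounts and filters, array weights, a replicate block, second probe sets, an F test over times and each array left out.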

Additional observations from a re-analysis of the deposited data

Results flagged for a closer look

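The difference between the cohorts was tested for each member, and 1 of 34 passed, Sel1l, the adaptor of the degradation complex, where 5.76% of all genes did. KO-labelled minus WT, it stood at -0.16 in SIRT6 livers and at +0.02 in SIRT1 livers, so the effects differed by -0.18 ± 0.06 (SE, log2, 72 arrays; limma, adjusted p = 0.0469). In the SIRT6 cohort 14 of 18 KO-labelled livers lay below the WT mean of their time, and in the SIRT1 cohort 8 of 18. The call was lost without any of 43 of the 72 arrays, and with a replicate block, quantile normalization, array medians centred, no filter or no trend.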

How the results depend on the processing

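Of the calls for single members, Herpud1 for 24 h kept its call in all 4 sets under each alternative. Counts of called members that moved by over 1.5 times were as follows. For the daily average in the SIRT6 cohort the 1 call became 7 with array weights, 2 in 1 fit of all 72 arrays and 2 with a replicate block, and 1 to 4 without single arrays. At single times in that cohort the 0 became 12 with array weights (2541 of all genes), 1 in the fit of 72 arrays and 0 to 1 without single arrays. The SIRT1 daily average gave 2 with array weights. The array-weight fits of 2 sets stopped before they converged. For 24 h, SIRT6 WT gave 1 with array medians centred, SIRT6 KO-labelled gave 1 and SIRT1 WT 9 with the F test over the 6 times, and SIRT6 KO-labelled gave 3 to 14 without single arrays. The 12 h count in SIRT1 KO-labelled livers was 0 to 1. The difference between cohorts gave 0 with array medians centred, no filter, the replicate block or no trend, 2 with array weights, and 0 to 2 without single arrays. Correlations with Hspa5 in the SIRT1 cohort gave 0 without the 2 farthest arrays and 2 with quantile normalization. Over values of single members under the alternatives, 3301 kept their direction and side of the threshold, 155 fell short of it, 39 passed newly and 18 that had no call changed sign, among them Sel1l in the SIRT1 cohort with array weights (-0.02). The cause was not tested. The replicate numbers were not taken as pairs, since not every same-numbered pair correlated above 0.1. Such pairs of KO-labelled and WT livers ranged from -0.36 to 0.74 in the SIRT6 cohort, 11 of 18 over 0.1, with a median of 0.25 against -0.09 for other pairs, and in the SIRT1 cohort had a median of 0.03 against 0.02. The block gives each replicate number a single offset over all times of a fit, and it changed no other count by over 1.5 times. It does not pair KO-labelled and WT livers within a time. Such pairing was left out of the KO-labelled minus WT tests, and its part in the SIRT6 cohort was not tested. Checks of single time points were chosen after seeing the data.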
